A study of Mus musculus with 8 samples.

Results

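Immunoglobulin heavy chain V segments (Ighv) are the gene segments that encode most of the variable domain of an antibody heavy chain. All 120 of them in the table were taken, out of 27179 genes, by their gene symbol: of the rows, 103 are spelled in the usual letter case and 17 differ from it in letter case only. The libraries were made from RNA of sorted lymphoid tissue inducer (LTi) cells of C57BL/6 mice, taken from Peyer's patches (PP) or from small intestinal lamina propria (LP). The sort kept live, lineage-negative, CD127+ and CCR6+ cells and left out KLRG1+, NK1.1+ and NKp46+ cells. The 4 groups, with 2 libraries each, were Tcf7+/+ (wild-type) PP, Tcf7fl/fl with Cre PP, wild-type LP and Tcf7fl/fl with Cre LP. Tcf7 encodes the transcription factor TCF-1, and the Cre recombinase deletes the part of it that is flanked by target sites. The sources used here give neither the age of the mice, nor any pooling of animals, nor whether the libraries of a group came from separate animals. The p-values therefore measure only the spread between these libraries, which may be technical.

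In a developing B cell, DNA recombination joins 1 V segment to a D and a J segment, and the joined exon is transcribed with a constant gene such as Igha, which encodes the heavy chain of IgA. Each B cell clone, and each plasma cell derived from it, carries its own joined V segment, so the set of V segments in a sample reflects which clones it holds. Plasma cells make very large amounts of this RNA, and IgA plasma cells are abundant in the lamina propria, while Peyer's patches hold B cell follicles. LTi cells are innate lymphoid cells, which are not known for making antibody.

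RNA of the targeted gene was higher in both PP libraries labelled knockout than in wild-type and overlapped between genotypes in LP. Tcf7 stood at 242.5 and 85.4 RPKM (read counts scaled to gene length and library depth) in wild-type PP and 355.5 and 337 in PP labelled knockout. The LP values were 229 and 246 RPKM for wild-type, and 237 and 215 for the libraries labelled knockout. These values cover the gene as a whole, deleted exons included, and do not check the labels, which are taken as given. All 10 markers of LTi cells and their gate were detected in each group, with a summed level of 6375 to 7976 RPKM, and Ncr1, which encodes the excluded NKp46, was at 0 throughout. The other excluded markers were not: Klrb1c, which encodes NK1.1, was at 32.8 RPKM in the first wild-type PP library and 8.42 in the second PP library labelled knockout, and Klrg1 at 10.7 in the first wild-type LP library, with all other values under 1. The total number of reads per library is not given. For the most common segment length of 294 bases, 1 read was worth 0.0766 to 0.0885 RPKM. The abundant segments thus lay far above the level of 1 read.

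The segments lie on the minus strand of chromosome 12 (GRCm38), from 113578504 to 116009954, a span of 2431 kb. RefSeq lists all 120 as V segments, in 16 families by symbol, of which family 1 holds 60, and GENCODE M21 calls 9 of them pseudogenes. Many are close relatives: the median identity of a segment to its nearest relative was 95.3%, and 64 of 120 had a relative at 95% identity or more. A gene level therefore depends on how reads shared by relatives were assigned, which the sources used here do not give. The pairs below, copied from the GENCODE M21 transcripts without the leader, show how few bases carry the difference between a segment that led a group and a relative. Capitals mark the bases at which the 2 members of a pair differ, and all other bases are in lower case. Each line is the last 294 bases of the annotated segment, read 5′ to 3′ on the minus strand.

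Ighv9-2 (chr12:114109001-114109294) and Ighv9-3 (chr12:114140692-114140985) led wild-type PP and PP labelled knockout respectively, and they differ at 15 of 294 bases (94.9% identity).
Ighv9-2: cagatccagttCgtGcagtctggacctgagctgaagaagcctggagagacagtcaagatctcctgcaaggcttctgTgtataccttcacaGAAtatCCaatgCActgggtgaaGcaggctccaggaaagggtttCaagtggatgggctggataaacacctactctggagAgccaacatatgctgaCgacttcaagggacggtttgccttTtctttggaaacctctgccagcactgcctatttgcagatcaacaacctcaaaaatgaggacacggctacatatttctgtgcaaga
Ighv9-3: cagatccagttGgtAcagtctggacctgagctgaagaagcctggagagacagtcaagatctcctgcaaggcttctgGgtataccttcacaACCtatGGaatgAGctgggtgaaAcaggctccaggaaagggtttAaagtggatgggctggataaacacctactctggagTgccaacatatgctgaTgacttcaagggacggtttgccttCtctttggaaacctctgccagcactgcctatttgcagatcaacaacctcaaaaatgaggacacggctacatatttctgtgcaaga

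Ighv1-82 (chr12:115952538-115952831) was high in PP labelled knockout, and it differs from Ighv1-80 (chr12:115912344-115912637) at 11 of 294 bases.
Ighv1-82: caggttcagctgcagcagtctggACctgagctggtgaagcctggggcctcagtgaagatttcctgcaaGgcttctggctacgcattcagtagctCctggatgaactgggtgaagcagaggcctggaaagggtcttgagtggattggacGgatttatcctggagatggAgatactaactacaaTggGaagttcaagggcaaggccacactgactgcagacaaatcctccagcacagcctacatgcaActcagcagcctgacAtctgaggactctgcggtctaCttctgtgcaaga
Ighv1-80: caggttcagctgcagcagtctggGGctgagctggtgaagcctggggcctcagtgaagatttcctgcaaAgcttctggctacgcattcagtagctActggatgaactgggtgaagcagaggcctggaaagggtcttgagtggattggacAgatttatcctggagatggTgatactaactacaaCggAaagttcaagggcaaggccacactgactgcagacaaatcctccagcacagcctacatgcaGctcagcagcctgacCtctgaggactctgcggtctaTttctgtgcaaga

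Ighv1-26 (chr12:114788372-114788665) was high in 3 of the 4 groups, and it differs from Ighv1-22 (chr12:114746273-114746566), which was high in 1 library, at 11 of 294 bases.
Ighv1-26: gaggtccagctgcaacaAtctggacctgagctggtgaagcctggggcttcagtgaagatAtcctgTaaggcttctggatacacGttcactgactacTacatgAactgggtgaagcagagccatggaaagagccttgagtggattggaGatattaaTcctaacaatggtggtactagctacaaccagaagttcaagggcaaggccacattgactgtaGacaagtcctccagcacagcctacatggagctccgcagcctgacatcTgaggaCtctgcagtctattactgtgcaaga
Ighv1-22: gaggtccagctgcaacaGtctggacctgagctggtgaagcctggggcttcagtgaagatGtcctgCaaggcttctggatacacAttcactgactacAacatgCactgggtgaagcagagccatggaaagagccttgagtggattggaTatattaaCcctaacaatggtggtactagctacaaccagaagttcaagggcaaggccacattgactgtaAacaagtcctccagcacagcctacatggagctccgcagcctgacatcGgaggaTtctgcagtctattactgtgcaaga

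Ighv1-15 (chr12:114657353-114657646) led 1 LP library labelled knockout, and it differs from Ighv1-23 (chr12:114764450-114764743), which was low in all libraries, at 5 of 294 bases.
Ighv1-15: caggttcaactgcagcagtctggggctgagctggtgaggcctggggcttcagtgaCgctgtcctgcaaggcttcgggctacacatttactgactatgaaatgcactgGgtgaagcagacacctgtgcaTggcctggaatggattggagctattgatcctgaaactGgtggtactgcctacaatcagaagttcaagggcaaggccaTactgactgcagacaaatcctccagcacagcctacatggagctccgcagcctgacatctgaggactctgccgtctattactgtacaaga
Ighv1-23: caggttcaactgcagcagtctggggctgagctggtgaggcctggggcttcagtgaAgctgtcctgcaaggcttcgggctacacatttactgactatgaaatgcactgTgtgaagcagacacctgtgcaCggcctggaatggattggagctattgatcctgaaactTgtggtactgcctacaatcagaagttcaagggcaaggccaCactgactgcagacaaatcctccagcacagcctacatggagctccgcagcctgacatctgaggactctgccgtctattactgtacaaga

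Few segments were abundant, and most of the abundant ones were so in 1 or 2 libraries. Of the 120, 12 were at 0 in all 8 libraries, 23 were above 0 but under 1 RPKM everywhere, and 85 reached 1 RPKM in at least 1 library. At 50 RPKM or more in at least 1 library stood 36 segments, 18 of them in exactly 1 library, 13 in exactly 2 and 5 in 3 or more, and 0 reached that level in all 8. Of these 36, 7 reached 50 RPKM in PP alone, 26 in LP alone and 3 in both tissues. The same counts over other genes are not given here, so these do not show how unusual the split is. The heat map of these 36 segments shows bright cells in pairs in PP and mostly single ones in LP.

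**Figure D1:**
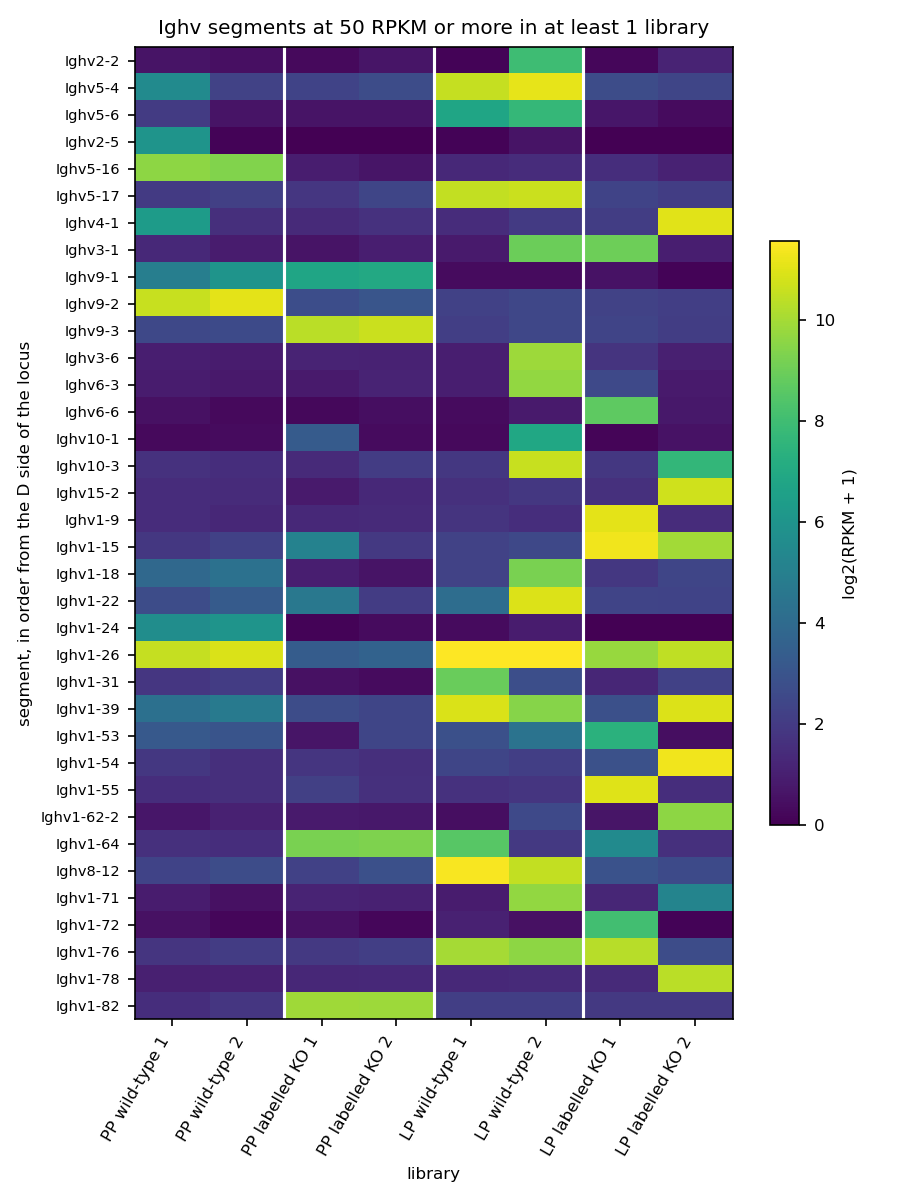
Levels of the 36 Ighv segments at 50 RPKM or more in at least 1 library, as log2(RPKM + 1) by colour, with segments in rows in order from the D side of the locus and the 8 libraries in columns (KO: labelled knockout; white lines part the 4 groups). High values stand in both replicates of a group in PP and more often in a single library in LP.

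Each PP group had its own leading segments, which both of its libraries shared. In wild-type PP, Ighv9-2 stood at 1559.9 and 2200.2 RPKM, Ighv1-26 at 1495 and 1889, and Ighv5-16 at 760.2 and 651. These 3 led both libraries and held 92.0% ± 2.71 (SD, n = 2) of the summed Ighv RPKM. In PP labelled knockout, Ighv9-3 stood at 1331 and 1603 RPKM, Ighv1-82 at 947 and 932, and Ighv1-64 at 602.5 and 637, which together held 91.3% ± 0.764. None of the 3 leading segments of one PP group was among the 3 of the other.

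In LP the segments at 50 RPKM or more were more numerous and the replicates less alike. Wild-type LP held Ighv1-26 at 3014 and 3005 RPKM, Ighv8-12 at 2786 and 1449, Ighv5-4 at 1499 and 2263, and Ighv5-17 at 1444 and 1611. The first LP library labelled knockout was led by Ighv1-15 at 2570.3 RPKM, Ighv1-9 at 2203 and Ighv1-55 at 2049.6, and the second by Ighv1-54 at 2503, Ighv4-1 at 2095 and Ighv1-39 at 1988. No segment was among the 3 leading ones of both libraries labelled knockout. In the second, Ighv1-9 and Ighv1-55 stood at 1.73 and 1.89 RPKM, and in the first, Ighv1-54 and Ighv4-1 stood at 6.38 and 3.23. The plot along the locus shows these as separate bars at different places in the 2 libraries.

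**Figure D2:**
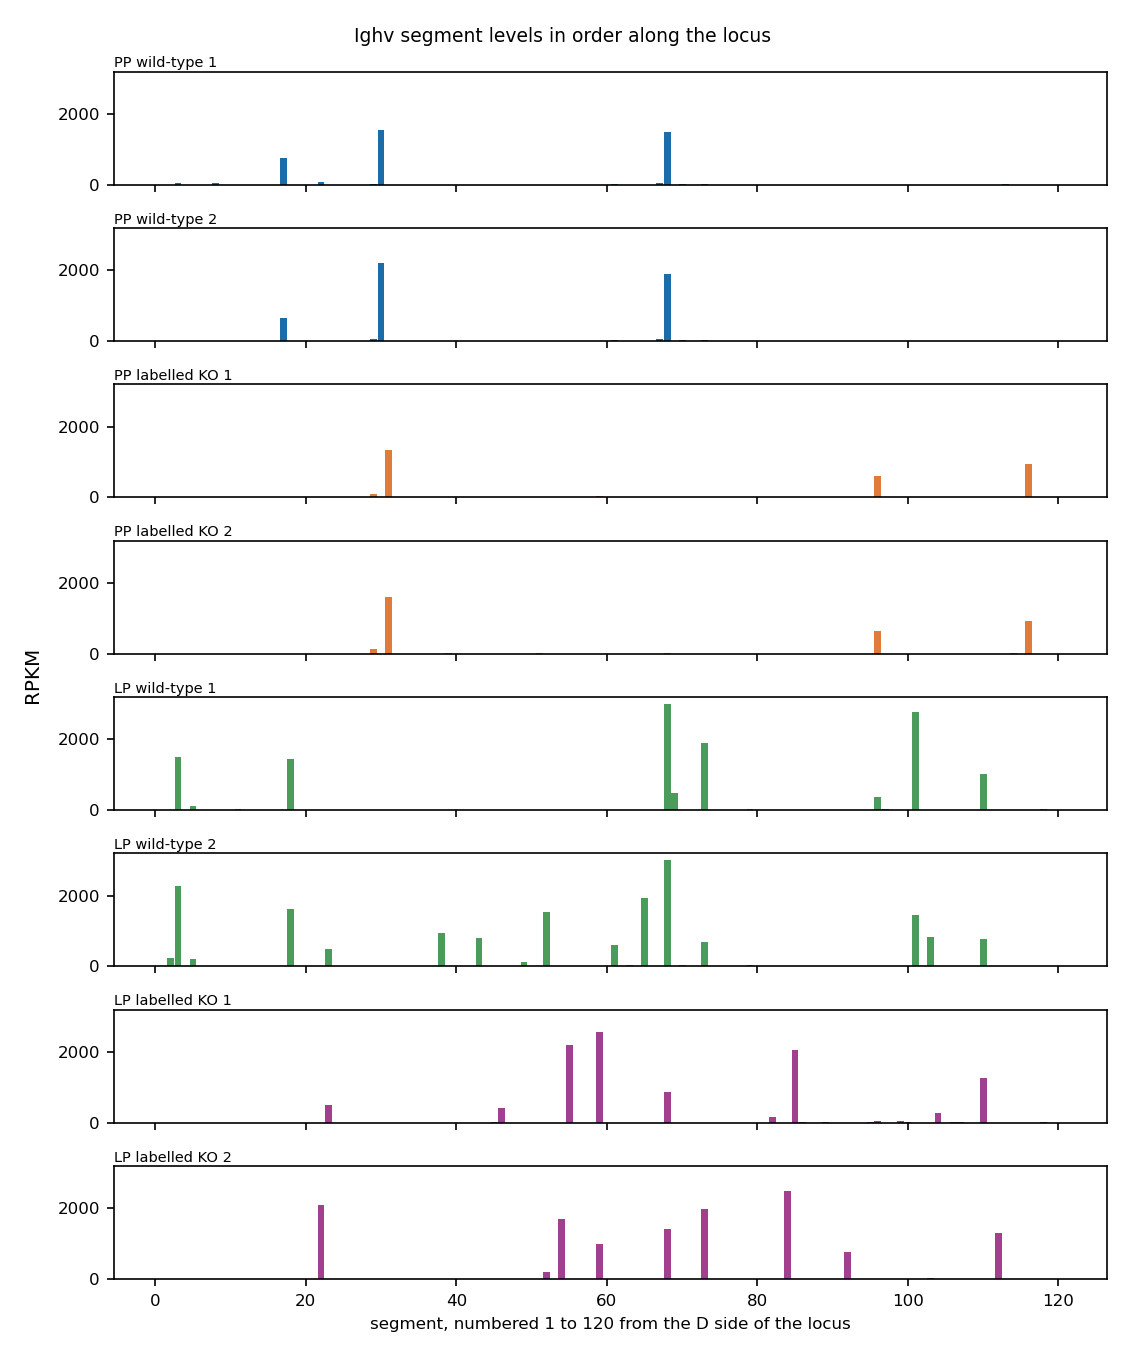
RPKM of each of the 120 Ighv segments in each library (1 panel per library, same vertical scale), with segments numbered 1 to 120 from the D side of the locus. The 2 panels of a PP group show the same 3 tall bars, whereas the 2 panels of LP labelled knockout have 2 segments at 50 RPKM or more in common, Ighv1-26 and Ighv1-15.

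Agreement between replicates was measured as the shared share, which is the sum over segments of the smaller of 2 libraries' shares of their summed Ighv RPKM. It was 90.1% between the wild-type PP libraries, 93.7% in PP labelled knockout, 55.8% in wild-type LP and 16.5% in LP labelled knockout. Between libraries of different groups it ran from 1.34% to 26.1% over 24 pairs, with a median of 6.87%. The LP libraries labelled knockout thus shared with each other about what they shared with the wild-type LP libraries, where the 4 values ran from 16.3% to 26.0%. Wild-type PP and PP labelled knockout shared 2.73% to 3.23%, less than wild-type PP shared with wild-type LP (19.2% to 26.1%). Ighv1-26 was at 500 RPKM or more in all 4 of those wild-type libraries.

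**Figure D3:**
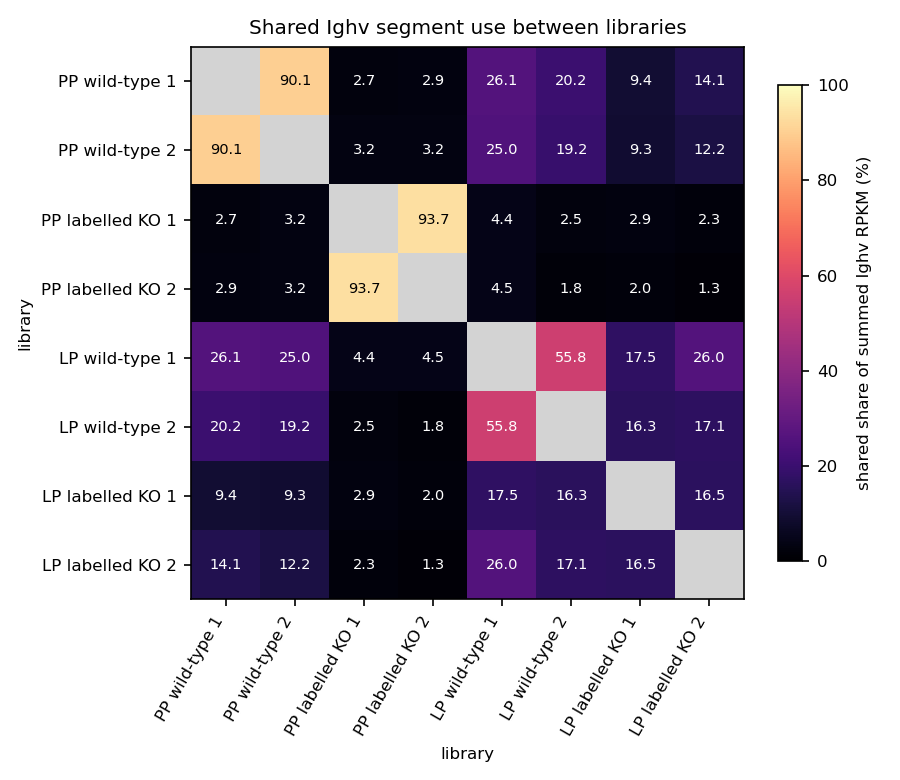
Shared share of Ighv segment use, in percent of the summed Ighv RPKM, for each pair of the 8 libraries (KO: labelled knockout; the diagonal is left grey). The replicate pairs stand at 90.1%, 93.7%, 55.8% and 16.5%, and all pairs of different groups stand between 1.34% and 26.1%.

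The same order held in the correlation of log2(RPKM + 1) over the 36 abundant segments, given here as a description, since segments of a library share their cells and depth. Pearson's r between replicates was 0.87 in wild-type PP, 0.94 in PP labelled knockout, 0.50 in wild-type LP and 0.015 in LP labelled knockout. Over all 10541 genes kept, the order was different: r was 0.58, 0.66, 0.75 and 0.68 in the same groups. The LP pairs were thus the more alike over all genes and the less alike over V segments.

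Large gaps between replicates show the same contrast segment by segment. Among the segments at 50 RPKM or more in at least 1 of the 2 libraries, 2 of 7 differed by 8-fold or more in wild-type PP, 0 of 4 in PP labelled knockout, 11 of 18 in wild-type LP and 14 of 16 in LP labelled knockout. Among other genes at that level, outside the immunoglobulin genes, the share was 21.3%, 6.81%, 2.01% and 7.17%. In LP the V segments thus differed between replicates at 61.1% and 87.5%, against 2.01% and 7.17% of other genes. In wild-type PP, Ighv2-5 stood at 62.9 and 0.0769 RPKM and Ighv4-1 at 80.8 and 1.99, both high in the first library. In wild-type LP, Ighv3-6 stood at 0.966 and 939.7 RPKM and Ighv1-71 at 0.861 and 831, both high in the second.

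**Figure D4:**
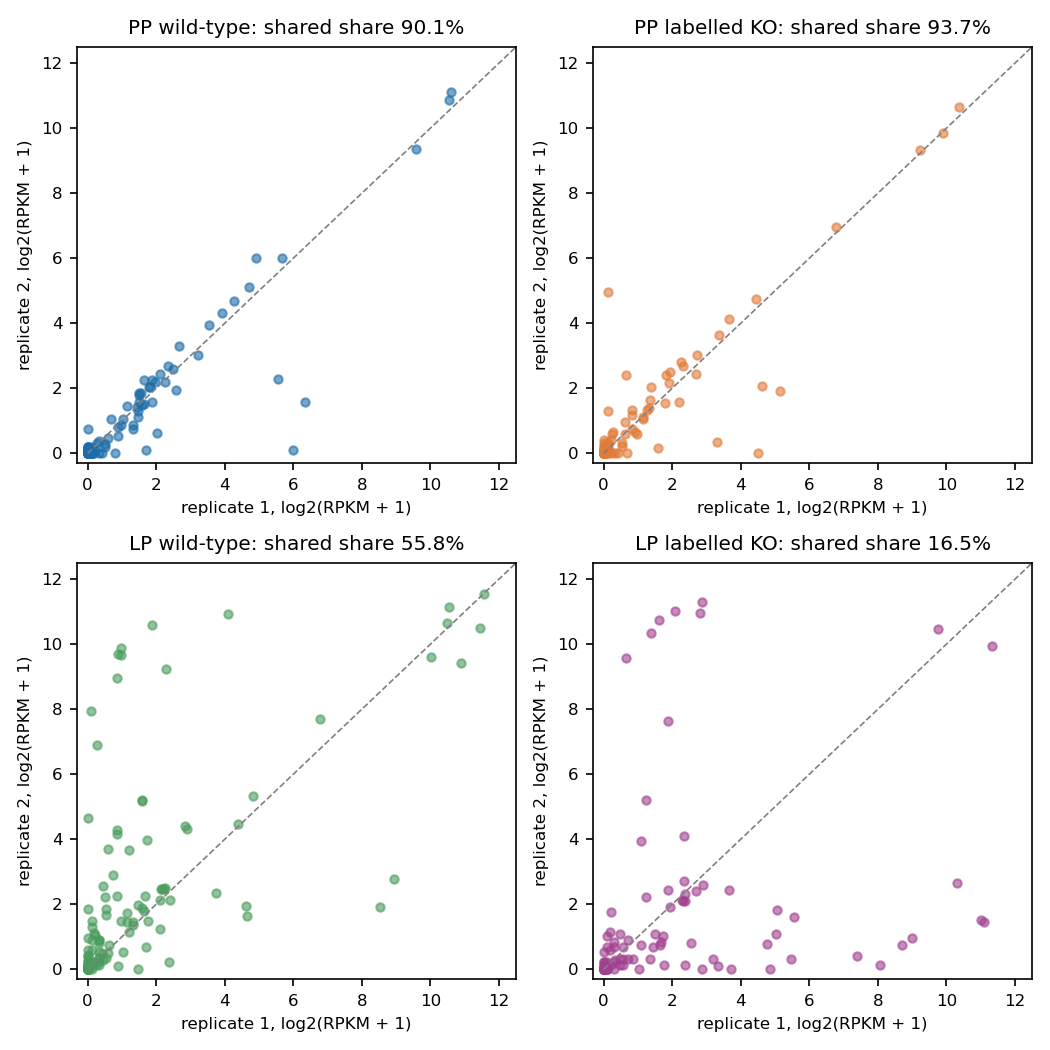
Replicate 1 against replicate 2 for all 120 Ighv segments, as log2(RPKM + 1), with 1 panel for each group and the line of equal values dashed (KO: labelled knockout). In PP the highest points lie near the line, with Ighv2-5 and Ighv4-1 off it in wild-type; in LP labelled knockout most high points lie near an axis, apart from Ighv1-15 and Ighv1-26.

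Segments high in a single library were above 0 in all others, mostly at a trace level. In all, 12 segments reached 500 RPKM in 1 library and stayed under 5% of that level in the other 7, and that library was from LP each time. Among them, Ighv1-71 and Ighv1-62-2 have identical annotated bases and were high in different libraries, so their place among the 12 is uncertain. Ighv1-54 stood at 2503 RPKM in the second LP library labelled knockout and at 1.95 to 6.38 in the others. Ighv1-9 stood at 2203 RPKM in the first and at 1.46 to 2.39 in the others. Ighv4-1 was the exception above 50 RPKM, with 80.8 in the first wild-type PP library beside its 2095 in the second LP library labelled knockout. For all 12, each of the other 7 libraries was above 0, and their median lay between 0.0785% and 0.651% of the highest, with a middle value of 0.107%. All 26 segments that reached 500 RPKM anywhere were above 0 in all 8 libraries, against 13 of the 82 lower ones. Outside the immunoglobulin genes, 0 genes had the pattern of these 12. The column names of all 8 libraries carry the same lane label, and the part of reads carried over between libraries in these trace levels was not tested. A low value of such a segment, such as Ighv9-3 at 4.68 and 5.07 RPKM in wild-type PP, is therefore of the size seen in every library without it.

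Summed over segments, V segment RNA was higher in LP than in PP, in every library. The segments took 0.754% and 0.890% of the summed RPKM of all genes in wild-type PP and 0.565% and 0.620% in PP labelled knockout. They took 2.39% and 3.15% of the wild-type LP libraries, and 2.01% and 2.43% of those labelled knockout. The 4 LP libraries were on average 3.54-fold above the 4 PP libraries (1.82 on the log2 scale), with no overlap. The two-sided exact permutation test over the 8 libraries gave p = 0.0286, the smallest that 4 against 4 allows, and 0.0571 after Benjamini-Hochberg adjustment over the 6 tests of this family, which misses 0.05. In these bulk samples, a larger number of cells carrying V segment RNA and more such RNA per cell cannot be told apart.

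The number of segments in use also differed between tissues. The effective number of segments, which is the exponential of the Shannon entropy of their shares, was 4.73 and 3.80 in wild-type PP and 4.42 and 4.11 in PP labelled knockout. It was 7.73 and 14.1 for the wild-type LP libraries, against 8.09 and 8.50 for those labelled knockout. The mean difference was 5.33 segments (9.6 ± 3.0 in LP against 4.27 ± 0.40 in PP, SD, n = 4), with an exact permutation p of 0.0286 and an adjusted p of 0.0571. The leading segment held 36.8% to 46.4% of the Ighv RPKM in PP and 16.8% to 24.1% in LP, a mean difference of -21.3 percentage points with the same exact permutation p values. Again each LP library lay on one side of all PP libraries, in both genotypes.

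By genotype the 3 measures overlapped. The Ighv share differed by -0.39 on the log2 scale between libraries labelled knockout and wild-type (exact permutation p = 0.54), the effective number by -1.30 segments (exact permutation p = 0.80) and the leading share by 2.72 percentage points (exact permutation p = 0.66). This test exchanged libraries across tissues, so the gap between tissues enters its spread. It could thus miss a genotype difference, and these p values do not show that there was none. Within a tissue, 2 libraries against 2 cannot give a two-sided p under 0.333. In PP the Ighv share was lower in both libraries labelled knockout (0.592% ± 0.038) than in both wild-type ones (0.822% ± 0.096, SD, n = 2), while the LP values overlapped.

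**Figure D5:**
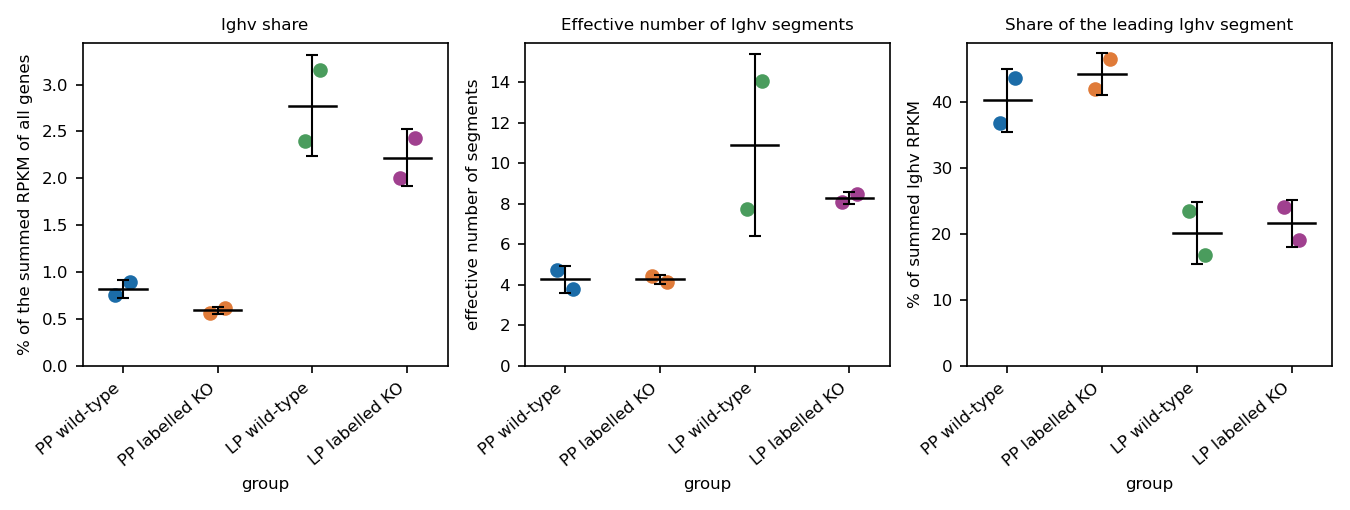
Ighv share of the summed RPKM of all genes, effective number of Ighv segments and share of the leading segment, with 1 point per library, the group mean as a line and the SD (n = 2) as bars (KO: labelled knockout). The 4 LP libraries lie above all 4 PP libraries in the first 2 panels and below them in the last, and the genotypes overlap within LP in each.

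Segment by segment, differences were tested with limma on log2(RPKM + 1) over the 10541 genes at 1 RPKM or more in at least 2 libraries, of which 65 are V segments. A segment high in a single library could pass that filter only through its trace level elsewhere, and the other 55 segments were not tested. Some segments that passed between tissues entered only through libraries where they were high. Ighv1-24 reached 1 RPKM only in wild-type PP, Ighv8-5 only in wild-type LP, Ighv9-4 only in PP labelled knockout and Ighv9-1 only in PP. The filter favoured their calls, which add no support of their own. In PP, 5 of the 65 passed an adjusted p of 0.05 between genotypes, 2 higher and 3 lower in libraries labelled knockout, against 0.266% and 0.0949% of all genes tested in these directions. Ighv9-2 fell from 1880.0 ± 453 to 6.45 ± 1.10 RPKM (SD, n = 2) in libraries labelled knockout, a log2 difference of -7.97 ± 0.65 (SE, limma adjusted p = 0.00582). Ighv1-26 fell from 1692 ± 279 to 10.4 ± 1.66 RPKM (-7.21 ± 0.29, limma adjusted p = 0.000421), and Ighv5-16 from 705 ± 77.5 to 0.736 ± 0.204 RPKM (-8.67 ± 0.90, limma adjusted p = 0.0168). Higher were Ighv9-3, from 4.87 ± 0.275 to 1467 ± 193 RPKM (7.96 ± 0.67, limma adjusted p = 0.00651), and Ighv1-82, from 2.22 ± 0.545 to 939.5 ± 11.1 RPKM (8.20 ± 0.75, limma adjusted p = 0.00933). Ighv1-64, at 1.99 and 1.82 RPKM in wild-type PP and 602.5 and 637 in PP labelled knockout, did not pass. It stood at 371 and 2.81 RPKM in wild-type LP, and this spread enters the shared error.

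The median log2 difference of the 65 segments in that comparison was -0.06, against 0.16 over all genes tested, with 26 positive and 39 negative. The changes thus went both ways and lay in few segments. The fit pools the spread of all 4 groups: with the PP groups fitted alone, 0 segments passed and the 5 had limma adjusted p of 0.079 to 0.0987. Without either PP library labelled knockout only Ighv1-26 passed.

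In LP, 2 of the 65 passed between genotypes, both lower in libraries labelled knockout, against 0.0285% of all genes tested. Ighv5-17 fell from 1527.5 ± 118 to 3.62 ± 0.475 RPKM (-8.37 ± 0.71, limma adjusted p = 0.0226), and Ighv8-12 from 2117 ± 945 to 5.73 ± 1.05 RPKM (-8.23 ± 0.68, limma adjusted p = 0.0226). Ighv5-4 did not pass, at 1499 and 2263 RPKM in the wild-type libraries against 5.49 and 4.33 in those labelled knockout. Ighv1-15 was high in both LP libraries labelled knockout, at 2570.3 and 993 RPKM against 3.80 and 4.69 in wild-type, and did not pass either (8.26 ± 1.12, limma adjusted p = 0.255). Ighv1-54 and Ighv1-9 were each high in 1 of the 2 libraries labelled knockout. The median over the 65 was -0.91, against -0.06 over all genes. No segment passed with the replicate number as a block (limma adjusted p = 0.104 for both), with a pseudocount of 0.1, or without any 1 of the 4 LP libraries or of the 2 PP libraries labelled knockout.

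Between tissues in wild-type mice, 9 of the 65 passed, 5 higher and 4 lower in LP, against 1.34% and 0.787% of all genes tested in these directions. Higher in LP were Ighv5-17, from 3.24 ± 0.509 to 1527.5 ± 118 RPKM (8.50 ± 0.71, limma adjusted p = 0.00436), and Ighv8-12, from 4.74 ± 0.915 to 2117 ± 945 RPKM (8.46 ± 0.68, limma adjusted p = 0.00436). Ighv5-4, Ighv5-6 and Ighv8-5 were higher by 6.93, 5.93 and 5.02 on the log2 scale. Lower in LP were Ighv9-2 (-8.51 ± 0.65, limma adjusted p = 0.00436) and Ighv5-16 (-8.07 ± 0.90, limma adjusted p = 0.0107), along with Ighv9-1 and Ighv1-24 (-5.12 and -5.22). Ighv1-26, at 1495 and 1889 RPKM in PP and 3014 and 3005 in LP, was high in both tissues and did not pass. Without wild-type LP replicate 1 or 2, 0 segments passed, and with the wild-type groups fitted alone, 0 passed.

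Between tissues in libraries labelled knockout, 6 of the 65 passed, 2 higher and 4 lower in LP, against 0.930% and 1.07% of all genes tested in these directions. Ighv1-26 rose from 10.4 ± 1.66 to 1139 ± 384 RPKM (6.61 ± 0.29, limma adjusted p = 0.000775) and Ighv1-15 from 18.5 ± 22.2 to 1782 ± 1115 RPKM (7.11 ± 1.12, limma adjusted p = 0.0363). Ighv9-3 fell from 1467 ± 193 to 3.73 ± 0.662 RPKM (-8.28 ± 0.67, limma adjusted p = 0.00416), and Ighv1-82 from 939.5 ± 11.1 to 2.80 ± 0.0424 RPKM (-7.95 ± 0.75, limma adjusted p = 0.00686). Ighv9-1 and Ighv9-4, relatives of Ighv9-3, fell by 6.54 and 3.89 on the log2 scale. Only Ighv1-26 passed without either PP library labelled knockout, and 0 passed with these groups fitted alone.

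The difference in the genotype effect between tissues passed for 1 segment, Ighv1-26, against 0.0285% of all genes tested. It was not particular to Ighv1-26: Ighv9-2 (7.83), Ighv9-3 (-8.05), Ighv5-17 (-8.41) and Ighv8-12 (-8.26) had larger differences on the log2 scale. With larger standard errors, they missed the threshold (limma adjusted p = 0.0821 for each). Ighv1-26 stood at 1495, 1889 (wild-type) and 9.24, 11.6 RPKM (labelled knockout) in PP, and at 3014, 3005 and 868, 1410.5 in LP. The difference of the log2 differences was 5.77 ± 0.41 (limma adjusted p = 0.0182). Ighv1-26 was thus lowest in PP labelled knockout, where both libraries lay under all 6 others. The result did not pass when any 1 of 7 of the 8 libraries was left out, with limma adjusted p of 0.104 to 0.386, and passed without LP replicate 1 labelled knockout (0.0295).

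Grouped by family, family 9 was high in PP alone, family 5 in wild-type libraries of both tissues and family 8 in wild-type LP. Family 9 held 37.6% to 50.7% of the Ighv RPKM in the 4 PP libraries and 0.0514% to 0.08% in the 4 LP libraries, although its leading member was Ighv9-2 in wild-type and Ighv9-3 in PP labelled knockout. Another member, Ighv9-1, was at 29.3 and 62.8 RPKM in wild-type PP and 109.8 and 125 in PP labelled knockout, and at most 0.485 RPKM in LP. Family 5 held 13.1% to 24.1% in the 4 wild-type libraries and 0.0692% to 0.316% in those labelled knockout, through Ighv5-16 in PP and Ighv5-4 and Ighv5-17 in LP. Family 8 held 22.2% and 8.44% in wild-type LP, through Ighv8-12, and at most 0.184% elsewhere. Family 1, the largest, held 39.4% to 53.6% in 6 libraries other than those of LP labelled knockout, where it held 90.9% and 69.3%. The shares of families 9, 5 and 8 in these libraries rest mostly on 1 or 2 segments each, and family shares were not tested.

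Some families were almost silent. Families 7, 11, 12, 13, 14 and 16, with 12 segments in all, had 0 segments at 1 RPKM or more in any library. Among them were Ighv11-2, at 0 in all 8, and Ighv12-3, at 0.0809 RPKM in 1 library and 0 in the other 7, both known from B-1 cells. By position, all 12 segments at 0 everywhere lay among the 40 segments nearest the D segments, a stretch that also held 12 of the 36 abundant segments. Those 40 held 46.3% to 60.4% of the Ighv RPKM in PP and 5.0% to 32.5% in LP.

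The levels of close relatives ran from far below a high segment to a share of it. Ighv5-6, which passed between tissues in wild-type, stood at 7.30% and 9.17% of Ighv5-4 in the wild-type LP libraries, and these segments share 95.5% of their bases. Ighv9-1 stood at 7.80% and 8.25% of Ighv9-3 in PP labelled knockout (93.2% identity). The part of shared reads in Ighv5-6 and Ighv9-1 was not tested. Ighv1-23 stood at 4.04 and 5.54 RPKM in the LP libraries labelled knockout, where Ighv1-15, which differs from it at the 5 capital letters shown above, stood at 2570.3 and 993. Ighv9-2 stood at 5.67 and 7.22 RPKM where Ighv9-3 led. Ighv1-80 stood at 20.9 and 25.9 RPKM in PP labelled knockout, 2.20% and 2.78% of Ighv1-82, and at most 4.16 elsewhere. Ighv1-22 stood at 16.3 and 1945 RPKM in the wild-type LP libraries, whose Ighv1-26 values were nearly equal. Over the 26 segments that reached 500 RPKM, the nearest relative stayed under 5% of the segment in all its high libraries for 16.

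One pair cannot be told apart by its annotated bases. Ighv1-62-2 and Ighv1-71 are identical over their 302 bases, yet Ighv1-71 stood at 831 RPKM in the second wild-type LP library, where Ighv1-62-2 stood at 4.86. In the second LP library labelled knockout, Ighv1-62-2 stood at 770.2 RPKM and Ighv1-71 at 36.0. How reads were given to one row or the other is not stated in the sources used here, so the levels of both are uncertain.

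Other immunoglobulin genes also differed between the tissues. Igha stood at 1368 to 1939 RPKM in PP and 7896 to 13349 in LP, and it rose in LP by 2.93 ± 0.21 on the log2 scale in wild-type (limma adjusted p = 0.00436) and by 2.23 ± 0.21 for the labelled knockout (limma adjusted p = 0.00685). Of the 8 heavy chain constant genes, 4 were tested, and between tissues 1 rose and 1 fell in wild-type, while 1 rose in libraries labelled knockout. Of all genes tested, 1.34% rose and 0.787% fell in LP in wild-type, and 0.930% and 1.07% in libraries labelled knockout. These shares are also the background of the list counts between tissues that follow. The one that fell was Ighg2b, a heavy chain of IgG, at 1829 and 2498 RPKM in wild-type PP, 362.5 and 370.5 in PP labelled knockout and 4.70 to 65.0 in LP (-7.06 ± 1.28, limma adjusted p = 0.0455). Ighm, the heavy chain of IgM, stood at 122 ± 13.9 and 62.0 ± 22.4 RPKM in the PP groups and 6.47 ± 8.50 and 9.89 ± 13.4 in the LP groups, and did not pass. PP thus held IgA and IgG2b RNA and, at a lower level, IgM RNA, and LP mostly IgA. Ighe was at 0 in all libraries.

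Among the 6 partners of the heavy chain, all tested, 1 rose in LP among wild-type libraries and 2 among those labelled knockout. Iglc2, a lambda light chain gene, rose in wild-type (6.08 ± 0.62, limma adjusted p = 0.00779). Igkc, the kappa light chain gene, rose from 4558 ± 268 to 15189.7 ± 1222 RPKM in libraries labelled knockout (1.74 ± 0.20, limma adjusted p = 0.0120), as did Jchain, which joins IgA into dimers, from 140.4 ± 55.1 to 634 ± 63.9 RPKM (2.22 ± 0.36, limma adjusted p = 0.0375). Between genotypes, 1 of the 6 rose in PP, again Iglc2 (4.86 ± 0.62, limma adjusted p = 0.0374), against 0.266% of all genes tested in that direction. Iglc2 reached only 72.1 and 44.2 RPKM in PP labelled knockout. The more abundant Igkc was lower there, at 4748 and 4368 RPKM against 11411 and 11308 in wild-type PP (limma adjusted p = 0.0617). Iglc1 was lower too, at 57.4 and 63.2 RPKM against 1368 and 1640 (limma adjusted p = 0.296). Jchain and Iglc3 also had lower means and Pigr a higher one, without passing. Rag2, which encodes a subunit of the V(D)J recombinase, was at 0 in all 8 libraries.

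Markers of B lineage cells were present beside the segments. The 10 plasma cell markers summed to 490 to 694 RPKM in PP and 1346 to 2049 in LP, and 1 of the 8 tested, Jchain, rose in LP in libraries labelled knockout. Jchain (101 to 285 RPKM in PP, 589 to 1179.8 in LP) and Xbp1 (163.5 to 215 and 389.6 to 582) held most of that gap, while Derl3 was at 64.7 and 53.7 RPKM in wild-type PP and 0.0779 and 4.91 in wild-type LP. The 12 B cell markers summed to 371 to 619 RPKM in PP and 101 to 161 in LP, with Pax5, the defining factor of B cells, at 0 in all 8 libraries. Among the 8 B cell markers tested, Cd22 fell in LP in wild-type and Cd79b in libraries labelled knockout (limma adjusted p = 0.0444 and 0.0375). Ptprc and Blk of that list are not restricted to B cells. The part of B cells or plasma cells in the V segment levels was not tested.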

How the data were processed

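Libraries were prepared by Smart-seq2 from total RNA, per the labels' protocols, and counted against mm10 with featureCounts (Subread), per the submitters' processing notes. The sources used here do not give the aligner, the annotation, the strand setting or the handling of shared reads. The authors deposited log2 values that, from the values, are log2(RPKM + 1) with 0.0001 in place of 0. Here log2 was undone, and 25271 of 27179 Entrez identifiers matched RefSeq on GRCm38.p6, which gave symbols and positions.

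limma 3.58.1 (R 4.3.3) was fitted on log2(RPKM + 1) for genes at 1 RPKM or more in at least 2 of 8 libraries, over all 4 groups with trended eBayes, with two-sided tests and Benjamini-Hochberg adjustment over all 10541 genes at 0.05. Single measures had an exact permutation test over the 70 assignments of 8 libraries, which takes them as independent. Sequences were compared with Biopython 1.88. The fit was tested on simulated data. RPKM has no counts, so no count test was run.

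The members and lists were chosen with earlier results of these data known. Named segments were the 3 highest by mean in each group, all that passed, and the 2 with the largest gap between replicates in each group, 22 in all. Other segments named, such as Ighv1-22, Ighv1-23, Ighv1-39, Ighv1-62-2 and Ighv1-80, were chosen after their values were seen. Alternatives changed the pseudocount, the filter, the scaling, the replicate block, the trend, the groups fitted and the libraries, and, added after seeing the data, the rows' letter case. Some items are not reported here.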

Additional observations from a re-analysis of the deposited data

Results flagged for a closer look

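The genotype effect on Ighv1-26 differed between the tissues: the log2 difference in LP minus that in PP was 5.77 ± 0.41 (SE, n = 2 libraries a group, limma adjusted p = 0.0182). The mean level was 1692 RPKM in wild-type PP, 10.4 in PP labelled knockout, 3009 in wild-type LP and 1139 in LP labelled knockout. Over the alternatives its limma adjusted p ran from 0.00371 with median-of-ratios rescaling to 0.386 without wild-type LP replicate 1.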

How the results depend on the processing

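All 390 alternative fits of the 23 named segment results kept the direction, and 232 passed. Those 23 results were chosen because they had passed, with levels far apart, so a kept direction adds no support to them. Counts of passing segments changed more. With only the 2 groups fitted, limma gave 0 in each of the 4 two-group comparisons, with 20 and 12 segments at an unadjusted p under 0.05 for genotype in PP and LP, and 20 and 10 for tissue in wild-type mice and in libraries labelled knockout. With a pseudocount of 0.1, the genotype comparison in LP gave 0 (16 at an unadjusted p under 0.05) and the tissue comparison in wild-type 5. Without the trend of the spread, the genotype comparison in LP and the interaction gave 0 (14 and 18 at an unadjusted p under 0.05). The interaction gave 6 segments with a pseudocount of 5, among 10 of 10541 genes called, and 8 with no filter, among 101 of 27179. Leaving out 1 library at a time gave 1 to 5 segments for genotype in PP, 0 to 3 in LP, 0 to 6 for tissue in wild-type mice, 1 to 4 for tissue in libraries labelled knockout and 0 to 1 for the interaction; an arm left with 1 library is assumed to vary like the others. The cause was not tested.

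Same-numbered libraries showed no shared deviation: their deviations correlated at -0.021 to 0.01 over all genes and at -0.147 to 0.083 over the 65 segments. Such correlations cannot tell whether libraries with the same replicate number came from the same mice. With the number as a block, 4 segments passed for genotype in PP, where Ighv5-16 lost its call (limma adjusted p = 0.0528), 0 segments passed for genotype in LP (16 at an unadjusted p under 0.05), 4 for tissue in wild-type mice and 3 for tissue in libraries labelled knockout.

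Without 1 library at a time, the tissue differences ran from 1.70 to 1.94 for the Ighv share (log2), 3.84 to 5.96 for the effective number and -23.1 to -19.9 for the leading share; their direction was fixed, since the tissues do not overlap. The genotype differences ran from -0.75 to -0.034, -2.56 to 0.86 and -1.80 to 7.32. With the 103 rows in the usual letter case they turned to 0.096, 0.057 and -10.7. Median-of-ratios rescaling shifted the median log2 difference over all genes from 0.16 to -0.07 for genotype in PP, from -0.29 to 0.012 for tissue in libraries labelled knockout and from -0.39 to 0.18 for the interaction.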
